A study of Mus musculus with 4 samples.

Results

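Probes for 6 brain miRNAs, miR-138, miR-137 and the 4 members of the miR-181 family, were examined in mouse hippocampus after spatial learning. They were chosen by probe name (mmu-miR-138, mmu-miR-137, mmu-miR-181a, mmu-miR-181b, mmu-miR-181c and mmu-miR-181d) from the 705 mouse miRNA probes of the array. All 6 were detected in both groups and were therefore among the 316 probes tested. A probe counted as detected in a group when at least 2 of its 3 spots carried flag 0 (the deposited file holds only the flags 0 and -50) on both arrays of that group.

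Hippocampal RNA had been taken from wild-type C57BL/6J mice, an inbred laboratory strain, directly after training in the Morris water maze, in which a mouse learns to swim to a hidden platform. Good performers (2 arrays) and poor performers (2 arrays) all went through the maze, so the comparison is between trained mice. The series describes 4 mice per group, but the sources used here give neither their division over the arrays nor their age nor the rule that separated good from poor performers. If the 2 arrays of a group are not separate animals, the p-values below measure only technical spread. No untrained mice were analysed here.

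A miRNA is a short RNA that guides repression of messenger RNAs, mainly through its seed, bases 2 to 8 from the 5′ end, and miRNAs that share a seed have largely shared targets. Several miRNAs act in neurons at the synapse, where they restrain local translation of proteins that set the size of dendritic spines and the strength of transmission. miR-138 is enriched in brain and limits spine size in rat hippocampal neurons by repressing Lypla1, a depalmitoylating enzyme. miR-137 restrains dendrite growth in mouse neurons through the ubiquitin ligase Mib1 and acts on vesicle release at the presynaptic terminal. miR-181a lowers the AMPA receptor subunit encoded by Gria2 in rat neurons.

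Because the seed decides the targets and the rest of the sequence decides how well a probe tells relatives apart, the mature sequences are shown first, from RefSeq on build GRCm38.p6, with the seed in capitals. All 6 members matched. The array names carry no arm, and each was matched to the arm that the older miRBase name without a star denotes.
miR-138-5p: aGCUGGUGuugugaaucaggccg
miR-137-3p: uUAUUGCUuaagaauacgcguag
miR-181a-5p: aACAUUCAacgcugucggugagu
miR-181b-5p: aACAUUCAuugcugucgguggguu
miR-181c-5p: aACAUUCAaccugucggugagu
miR-181d-5p: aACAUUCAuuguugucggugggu

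The 4 miR-181 members had the same seed, ACAUUCA, which no other of the 1679 mature mouse miRNAs in the table had. The seeds of miR-138 and miR-137 were likewise held by no other entry. Outside the seed the family fell into close pairs. miR-181a and miR-181c were 1 edit (a substitution, insertion or deletion) apart, and miR-181b and miR-181d were 2 edits apart. Between the pairs the distance was 4 to 5 edits, and any miR-181 member was at least 14 edits from miR-138 or miR-137. The probe sequences were not used here, so how far a probe also captured the close relative was not tested.

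The pairing by sequence was not the pairing by locus. miR-181a and miR-181b are each made from 2 loci, which lie side by side. On chromosome 1 Mir181a-1 (mature sequence at chr1:137966468-137966490, plus strand) and Mir181b-1 (chr1:137966650-137966673, plus strand) were 159 bases apart. On chromosome 2 Mir181a-2 (chr2:38852741-38852763, plus strand) and Mir181b-2 (chr2:38853845-38853868, plus strand) lay 1081 bases apart, within the annotated span of Nr6a1, a nuclear receptor gene, and of the long non-coding RNA Nr6a1os. Mir181c (chr8:84178924-84178945, minus strand) and Mir181d (chr8:84178759-84178781, minus strand) were separated by 142 bases. miR-138 comes from Mir138-1 (chr9:122682898-122682920, plus strand) and Mir138-2 (chr8:94324312-94324334, plus strand), the latter within the span of Nup93, a nuclear pore gene. miR-137 comes from a single locus, Mir137 (chr3:118433901-118433923, plus strand). The array reads the mature strand, so copies from different loci of miR-138, miR-181a or miR-181b could not be told apart.

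All 72 member spots, 3 for each probe on each of the 4 arrays, had flag 0. Raw intensity, the unnormalized brightness of a spot, averaged 2995.3 and 3069.7 for miR-138 on the good-performer arrays and 2982.7 and 2965.3 on the poor-performer arrays. That was 46.4 to 47.7 times the mean of the blank spots, which was 63 to 64.4, and well under the highest value on the arrays, 65535. Both good-performer arrays lay above both poor-performer arrays, by a margin smaller than the spread between the good-performer arrays. For miR-137 the means were 124.7 and 131 in good and 124 and 128 in poor performers, 1.94 to 2.04 times the blanks, so a change in this dim probe is read over a large background. The groups overlapped for miR-137.

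The raw means of miR-181a were 1618.7 and 1692.7 in good and 1502.7 and 1503 in poor performers. For miR-181b they were 491 and 529.7 in good and 453 and 480 in poor performers. For miR-181c they were 225.3 and 221.7 in good and 213.3 and 205.7 in poor performers. Each of these 3 probes was brighter on both good-performer arrays than on either poor-performer array. Without normalization this held for 36.7% of all tested probes. miR-181d had 248.3 and 254.7 in good and 248.3 and 239.7 in poor performers, with groups that met at 248.3. The family's signal over blanks ranged from 23.5 to 26.3 times for miR-181a, 7.08 to 8.23 for miR-181b, 3.22 to 3.58 for miR-181c and 3.75 to 3.96 for miR-181d. Brightness depends on the probe as well as on the RNA, so these values do not rank the miRNAs by abundance.

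**Figure D1:**
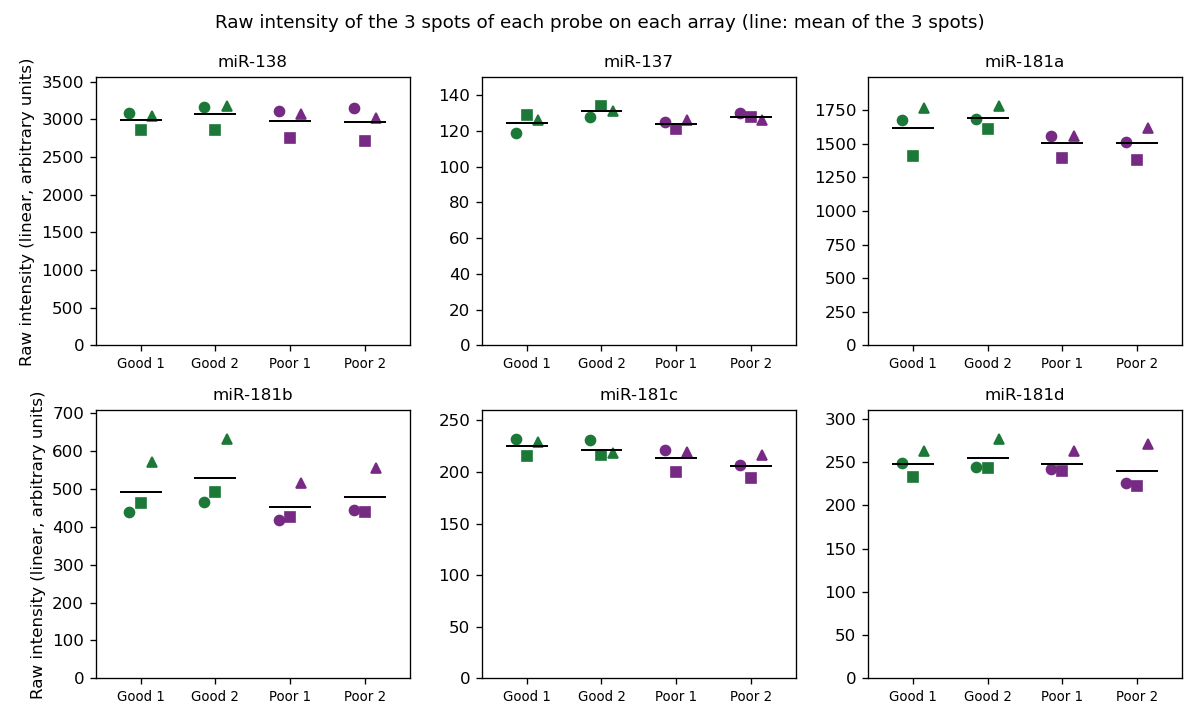
Raw intensity (linear scale from 0, arbitrary units) of the 3 spots of each probe (circle, square and triangle) on the 2 good-performer arrays (green) and the 2 poor-performer arrays (purple), with a line at their mean. All 3 miR-181a spots lie higher on both good-performer arrays, while miR-138 and miR-137 lie at nearly the same height on all 4 arrays.

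Within several probes the spots kept their rank from array to array. The third miR-181b spot read 570, 632, 516 and 556 (good 1, good 2, poor 1, poor 2), above the first at 439, 466, 418 and 444 and the second at 464, 491, 425 and 440 on every array. The second spot of miR-138 was likewise the dimmest on all 4 arrays, at 2858, 2863, 2759 and 2718. For these probes the offsets between spots were larger than the difference between the groups, and a comparison of the same spot across arrays removes them. On that basis both good-performer arrays exceeded both poor-performer arrays in 8 of the 12 miR-181 spots and in 2 of the 6 spots of miR-138 and miR-137, against 33.5% of the 948 spots of all tested probes. Spots of a probe share the arrays and are not replicates, so no test was made.

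Good and poor performers were then compared after background correction and quantile normalization, which gives all arrays the same distribution of spot values. None of the 6 members passed limma's test at an adjusted p under 0.05, against 5.06% of all tested probes (16 of 316). None had an unadjusted p under 0.05 either, against 20.9% of tested probes. The median log2 fold change of the 6 (good minus poor) was -0.0068, against -0.0072 for all tested probes, with 2 members higher and 4 lower in mean. In a bulk tissue sample, fewer cells of a type and less RNA per cell cannot be told apart, and this holds for every value that follows.

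miR-138 had normalized log2 intensities of 11.55 and 11.48 in good performers and 11.61 and 11.54 in poor performers. The groups overlapped. The means were 11.52 ± 0.047 (SD, n = 2) and 11.57 ± 0.050 (SD, n = 2), which gives a log2 fold change of -0.06 ± 0.04 (SE; limma adjusted p = 0.550). Its 95% interval, as a fold, ran from 0.885 to 1.05, so a fall to below 0.885 of the poor-performer level or a rise above 1.05 lay outside the interval.

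miR-137, the dimmest of the 6 probes over blanks, had 6.98 and 6.99 in good and 7.01 and 6.99 in poor performers. These values overlapped and differed by less than the spread within the poor-performer group. The change was -0.0093 ± 0.027 (SE) on the log2 scale (limma adjusted p = 0.910), with an interval of 0.943 to 1.05 as a fold. The scale holds an added offset of 50 intensity units, which understates the change of so dim a probe.

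miR-181a stood alone in that its groups did not overlap, at 10.65 and 10.67 in good and 10.59 and 10.59 in poor performers. The 2 groups were apart for 1 of 6 members, against 50.6% of tested probes (23.1% with good performers higher and 27.5% with poor performers higher). The means were 10.66 ± 0.0095 (SD, n = 2) and 10.59 ± 0.0014 (SD, n = 2), and the log2 fold change was 0.07 ± 0.03 (SE). This did not pass (limma adjusted p = 0.237; unadjusted p = 0.052). As a fold it was 1.05, with an interval of 0.999 to 1.11. By absolute change it ranked 124th of the 316 tested probes.

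miR-181b, transcribed beside miR-181a at both loci, had 8.90 and 8.94 in good and 8.92 and 8.93 in poor performers. The poor-performer values lay between those of the good performers. The change was -0.0043 ± 0.030 (SE) on the log2 scale (limma adjusted p = 0.972), with an interval of 0.941 to 1.06 as a fold. In mouse endothelium miR-181b represses the nuclear import factor Kpna4.

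After quantile normalization miR-181c and miR-181d, the pair on chromosome 8, each differed more between the arrays of a group than between the groups. miR-181c, which reaches mitochondria in rat heart, had 7.83 and 7.72 in good and 7.80 and 7.68 in poor performers. miR-181d, which represses the DNA repair gene MGMT in human glioma cells, had 7.97 and 7.91 in good and 7.99 and 7.92 in poor performers. In both, array 1 of each group was the higher, and the groups overlapped. Array 1 was likewise the higher in both groups for miR-138 and for 28.8% of tested probes. Without normalization miR-181c kept that order, but miR-181d and miR-138 did not. On good-performer arrays 1 and 2, miR-181d was then at 7.96 and 7.98 and miR-138 at 11.55 and 11.58. The sources used here give the array numbers no meaning, so same-numbered arrays of the 2 groups need not belong together. The log2 fold changes were 0.03 ± 0.06 (SE; limma adjusted p = 0.857) for miR-181c and -0.02 ± 0.04 (SE; limma adjusted p = 0.898) for miR-181d. In this fit, which leaves array number out, miR-181c had the widest interval of the 6 members, 0.905 to 1.15 as a fold. With array number in the model its standard error was 0.028.

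**Figure D2:**
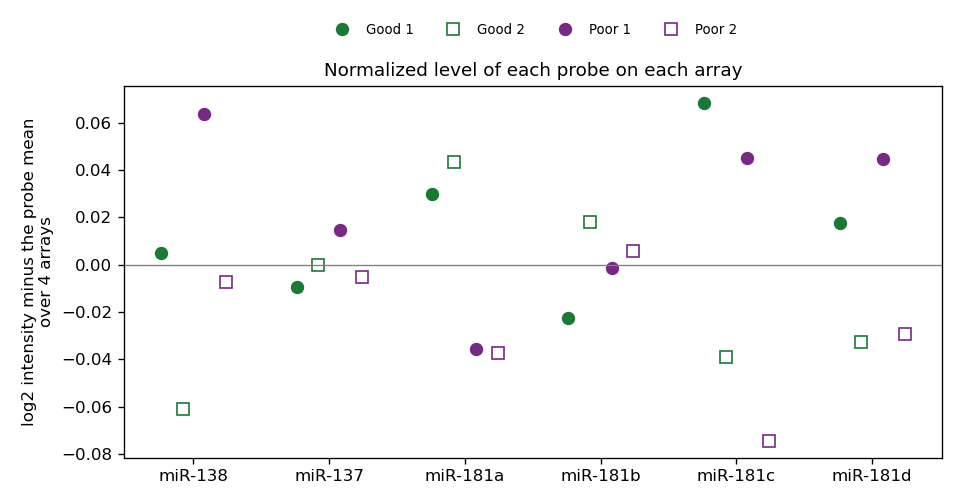
Normalized log2 intensity of each probe on each array, minus the mean of that probe over the 4 arrays (good performers green, poor performers purple, filled circles array 1 and open squares array 2 of a group). Only for miR-181a do both good-performer arrays lie above both poor-performer arrays, and the points of all 6 probes stay between -0.08 and 0.07.

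Standard errors of the 6 members ran from 0.027 to 0.062 log2 units, around the median of 0.040 over all tested probes. After quantile normalization members changed little in size. The median absolute log2 fold change was 0.02, against 0.05 over all tested probes, whose upper quartile was 0.10. Sizes under other scalings differed and are given with the settings below. Over the 6 members the intervals of the quantile-normalized fit reached from 0.885 to 1.15 as a fold. They do not bound the change under other scalings. Without normalization the log2 interval was 0.02 to 0.25 for miR-181a and -0.02 to 0.26 for miR-181b. With 2 arrays against 2, the smallest two-sided p of an exact permutation test is 0.333, so these p-values and intervals rest on limma's shared estimate of the variance.

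**Figure D3:**
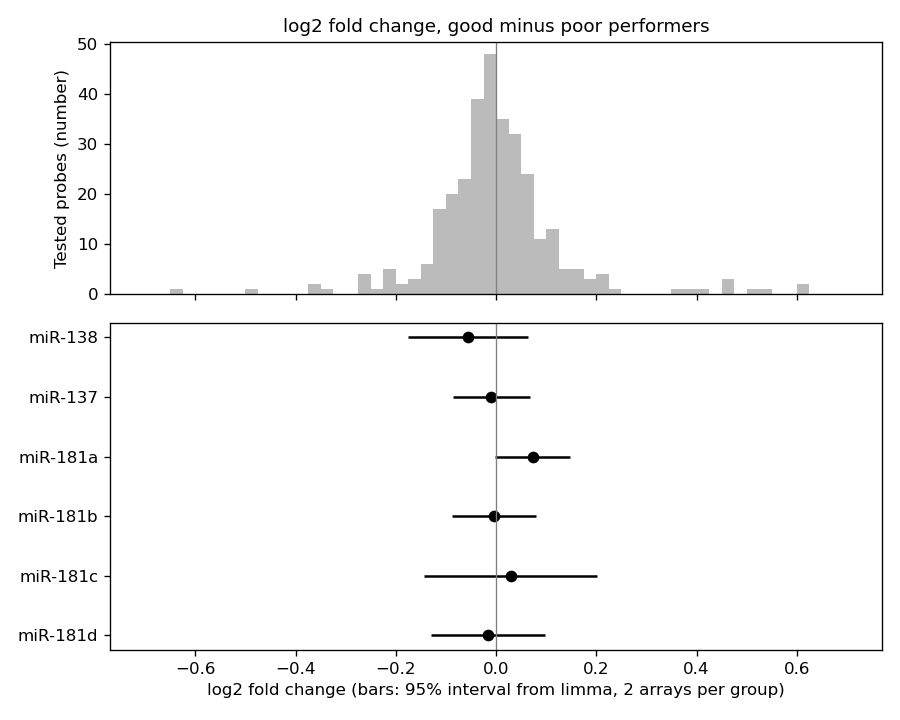
Upper panel, the number of the 316 tested probes at each log2 fold change (good minus poor performers). Lower panel, the log2 fold change of the 6 members with the 95% interval from limma (2 arrays per group), which includes 0 in every case and for miR-181a only just, from -0.0012 to 0.15.

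The sign of every member depended on how arrays were scaled, as the plot of the settings shows. Without any normalization the mean of all 6 was higher in good performers, as was that of 68.4% of tested probes, and the median of all tested probes was 0.03. There miR-181a had a log2 fold change of 0.14 ± 0.04 (SE), miR-181b of 0.12 ± 0.06 (SE) and miR-181c of 0.09 ± 0.05 (SE), and none passed (limma adjusted p = 0.196, 0.296 and 0.369). The groups did not overlap, with good performers higher, for 4 of the 6 members (miR-138, miR-181a, miR-181b and miR-181c) against 36.7% of tested probes. With scaling to added spike-in RNA all 6 had the lower mean, from -0.13 for miR-137 to -0.0049 for miR-181a, beside a median of -0.11 over all tested probes.

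Set against that median, the members had one order under the scalings that shift a whole array by a constant (none, 75th percentile and spike-in). These differ only by that constant, so their agreement is by construction. Relative to the median tested probe, miR-181a was at 0.11, miR-181b at 0.09, miR-181c at 0.06, miR-181d at 0.0089, miR-138 at -0.0018 and miR-137 at -0.02 log2 units. The order differed after quantile normalization, where miR-181b (-0.0043) lay below miR-181c (0.03). In the authors' deposited table, for which the sources used here name no normalization method, the log2 ratio of good over poor performers was 0.02 for both miR-181a and miR-181b, -0.03 for miR-181d, -0.04 for miR-181c, -0.06 for miR-138 and -0.10 for miR-137. Of the 383 probes in the authors' deposited table, 83% had a ratio below 0, and the median was -0.08. Their normalized intensity of miR-138 in the authors' deposited table was 2974.3 on both good-performer arrays, and 3206.4 and 2978 on the poor-performer arrays. No member passed limma's test under any setting, and the lowest adjusted p was 0.072, for miR-137 on the authors' deposited values.

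**Figure D4:**
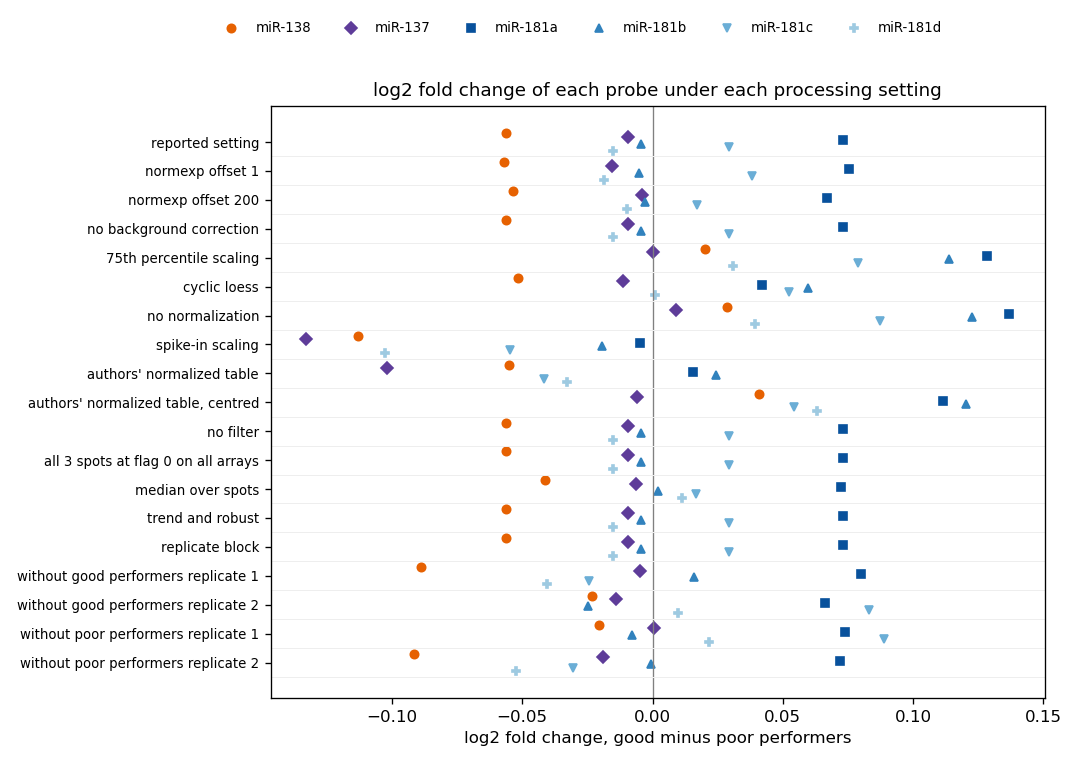
Log2 fold change (good minus poor performers, horizontal axis) of the 6 probes under the reported setting and 18 others (rows). The miR-181a squares lie above 0 in every row except spike-in scaling, while the other 5 probes lie on both sides of 0.

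Opposite strands of the precursors were represented by 3 further probes, and none was detected. miR-138*, the opposite strand to miR-138, had raw means of 78 and 80.3 in good and 75.7 and 76 in poor performers, 1.18 to 1.25 times the blanks. It had flag 0 on 1 spot of one good-performer array and on 2 spots of one poor-performer array. miR-181a-1* and miR-181a-2* had flag 0 on no spot, with raw means at 1 to 1.06 and 0.898 to 0.942 times the blanks. The 2 miR-181a strands were at the level of blank spots. miR-138* was near it, with each array mean above the highest blank spot of that array (70, 71, 75 and 70). Both good-performer means of miR-138* were above both poor-performer means, an order that 36.7% of tested probes had without normalization. As none of these strands counted as detected, no change between the groups is given for them.

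The members were next placed among tested probes by their pattern over the 4 arrays, using the Euclidean distance between log2 values after each probe was centred on its mean. The 2 nearest probes were miR-154 (0.02) and miR-27a (0.03) for miR-138, miR-434-3p (0.0062) and miR-532-3p (0.0066) for miR-137, and miR-99b (0.01) and miR-466f-5p (0.02) for miR-181a. They were the probe named mmu-miR-466f (0.01) and miR-376b* (0.01) for miR-181b, miR-30c (0.02) and miR-455* (0.02) for miR-181c, and miR-153 (0.02) and miR-30a (0.02) for miR-181d. No member had another member among its 2 nearest probes. With so few probes taken from the 316 tested, this says little about the family. Within the family the distances ran from 0.07 (miR-181c and miR-181d) to 0.14 (miR-181b and miR-181c). By this distance closeness did not always follow the family. miR-181d lay nearer to miR-138 (0.04) and miR-137 (0.06) than to any other miR-181 probe, and of the members miR-137 (0.03) lay nearest to miR-181b. The distance is not scaled, so a nearly flat probe lies close to many. The distance to a flat profile was 0.02 for miR-137, 0.03 for miR-181b and 0.07 for miR-181d. Nearness to miR-137 therefore does not show a shared pattern. For scale, arrays of one group differed by up to 0.12 log2 units in a member.

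Among 38 other miRNAs with known roles at the synapse or in plasticity, 32 were tested. Of these 1 fell and none rose (3.16% of tested probes rose and 1.9% fell), and the mean was higher in good performers for 15. The median log2 fold change was -0.0054, close to the -0.0072 of all tested probes. The one that fell was miR-219, which averaged 9.33 ± 0.022 (SD, n = 2) in the good and 9.60 ± 0.0015 (SD, n = 2) in the poor performers (log2 fold change -0.27, limma adjusted p = 0.025). The call was lost on leaving out each array in turn, as was every other call, so this loss is not particular to miR-219. Its log2 fold change there ran from -0.28 to -0.25. The call was kept in 9 of the 14 other settings with all arrays, some of which reuse the same normalized values. Over the 14 its log2 fold change ran from -0.30 (spike-in scaling) to -0.16 (centred authors' table). It did not pass with 75th percentile scaling (-0.17), without normalization (-0.16) or in the centred authors' table (limma adjusted p = 0.087, 0.13 and 0.108). Nor did it pass at offset 1 or with the median over spots. miR-219 is also known for promoting the maturation of oligodendrocytes. The next by p did not pass: miR-191 had a log2 fold change of 0.14, miR-128 of 0.14, let-7b of 0.15 and miR-29a of 0.10 (limma adjusted p = 0.154, 0.154, 0.160 and 0.193).

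Levels of miRNAs of neurons were examined next, of which 13 of 14 on the array were tested. No threshold was set, so the tissue label was not tested by them. miR-124, among the most abundant neuronal miRNAs, had a mean log2 intensity of 14.43 ± 0.14 (SD, n = 2) in the good and 14.42 ± 0.049 (SD, n = 2) in the poor performers. The mean of the 13 neuronal probes was 8.86 to 8.90 in good and 8.89 in both poor-performer arrays, and 4 of the 13 had the higher mean in good performers. None passed limma's test, against 5.06% of all tested probes. At an unadjusted p under 0.05 (limma) there were 2, against 20.9% of all tested probes. Members went both ways, with miR-128 at 0.14 and miR-9 at -0.07. Whether neuronal content differed between the groups was not tested. Lists for other cells a dissection can hold gave 1 call in all, where 5.06% of all tested probes passed. It was that of miR-219 (lost, like every call, without any 1 array) among the 3 oligodendrocyte probes. Their mean log2 intensity was at most 8.03 in good and at least 8.12 in poor performers. The list mean was also apart between the groups for the astrocyte list (higher in good performers). It was apart too for the choroid plexus and ependymal list and the erythroid list (both lower in good performers). Of single tested probes 50.6% were apart, but no such share was computed for means over a list. None passed among 10 astrocyte probes (miR-29a brightest), 4 microglial and immune probes (miR-21), 5 vascular probes (miR-126-5p), 5 choroid plexus and ependymal probes (miR-204) and 2 erythroid probes (miR-451). Medians of these lists ran from -0.07 (erythroid) to 0.02 (astrocyte), against -0.09 for the oligodendrocyte list.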

How the data were processed

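The deposited raw intensity of each spot on a linear scale and a deposited flag (0 or -50) came per the file headers, and so did the authors' normalized intensity and log2 ratio for 383 probes; the sources used here name no normalization method. RNA (2.5 µg) carried the dye Cy5, per the labels' protocols. With limma 3.58.1 (R 4.3.3), raw intensity was background-corrected (normexp, offset 50, fitted over every spot), log2-transformed, quantile-normalized across 2115 miRNA spots and averaged over 3 spots. The 316 probes with 2 spots at flag 0 on both arrays of a group were fitted with lmFit and eBayes (two-sided, Benjamini-Hochberg over all 316, threshold 0.05). A fold is on the scale with the offset. The fit was tested on simulated data. Arrays of a group were counted as 2 because the labels list them as 2 samples. They differed by 2.68 (good) and 2.34 (poor) times the variance that spot noise gives, which sets them apart from copies of 1 scan but does not show separate animals. The members, lists and settings were chosen with earlier results of these data known. Named probes were the members, their opposite strands, the 2 nearest probes of each member, the listed synaptic miRNAs that passed or were among the 5 lowest p, and the brightest probe of each cell type list. Alternatives covered offset, background, scaling, filter, spot summary, variance model, a replicate block and leaving out each array. The number of arrays limits precision.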

Additional observations from a re-analysis of the deposited data

How the results depend on the processing

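All 6 members were detected under each of 3 spot rules, and 0 members passed in the 18 refits (limma; at most 2 at an unadjusted p under 0.05, in the centred authors' table). The 16 calls over all tested probes became 30 with the trended and robust variance model, 7 at offset 1, 6 with the median over spots, 31 with spike-in scaling, 37 in the authors' normalized table and 0 to 0 without 1 array, where fewer arrays remain. The split of higher to lower calls, 10 to 6 as reported, was 12 to 3 without normalization, 15 to 5 with 75th percentile scaling, 10 to 21 with spike-in scaling, 6 to 31 in the authors' table and 11 to 4 in it after centring. Signs turned for miR-138 (0.02 with 75th percentile scaling, 0.0287 without normalization, 0.0408 in the centred authors' table), miR-137 (0.0001 and 0.0089 in the first 2 of these) and miR-181a (-0.0049 with spike-in scaling). They turned for miR-181b at 0.1138 with 75th percentile scaling, 0.0597 with cyclic loess, 0.1225 without normalization, 0.0244 and 0.1203 in the authors' table as deposited and centred, and 0.0022 with the median over spots. For miR-181c they turned at -0.0545 with spike-in scaling and -0.0418 in the authors' table. For miR-181d they turned at 0.0307 with 75th percentile scaling, 0.0008 with cyclic loess, 0.0394 without normalization, 0.0632 in the centred authors' table and 0.0112 with the median over spots. Without 1 array the ranges were -0.0917 to -0.0206 for miR-138, -0.0191 to 0.0005 for miR-137, 0.0663 to 0.0798 for miR-181a, -0.0246 to 0.016 for miR-181b, -0.0305 to 0.089 for miR-181c and -0.0522 to 0.0216 for miR-181d. The cause of the changes was not tested. Under a replicate block (array number in the model) 13 probes and no member passed. The standard error of miR-181c was 0.028 in place of 0.062 (adjusted p = 0.607). Deviations of same-numbered arrays correlated at 0.22 over 300 probes, so with only 2 pairs no pairing was assumed. After quantile normalization miR-138, miR-181c and miR-181d were higher on array 1 than on array 2 in both groups, as were 28.8% of tested probes. Without normalization this held for miR-181c but not for miR-138 or miR-181d.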
